A study of Mus musculus with 18 samples.

Results

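The 37 genes described here encode lysosomal hydrolases, sphingolipid activators, granulin, and proteins of the lysosomal membrane and its proton pump. They were chosen by name from the 23352 gene symbols measured in mouse liver. They comprise 8 cathepsins, 2 other peptidases, 12 glycosidases, a group of 5 with 3 sulfatases, a thioesterase and a phosphatase, a group of 3 with 2 sphingolipid activators and granulin, and 7 membrane proteins. Every member was present in the deposited tables and none carried a failed estimate. All 37 had a mean level of at least 1 FPKM (fragment counts scaled to transcript length and to the mapped total of the library) over the livers, so all were among the 10835 genes tested.

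RNA was measured in livers of 18 male mice aged 20 weeks and fed high-fat diet (HFD), 9 wild-type (WT) and 9 *Gpr180*KO, with 1 library per mouse. *Gpr180*KO mice carry a whole-body deletion made with CRISPR/Cas9 on the C57BL/6J background. They and the WT controls were derived from matings of heterozygous founders, and whether the sequenced mice were littermates is not stated. The comparison asks which liver transcripts differ when Gpr180 is lacking. Whole liver was used, so fewer cells of a type and less RNA per cell cannot be told apart.

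The lysosome is the acidic compartment in which cells break down proteins, glycans and lipids. Its soluble hydrolases are tagged with mannose 6-phosphate in the Golgi and carried to the lysosome, where a proton pump, the V-ATPase, keeps the lumen acid. Many of these genes share a promoter element, the CLEAR element, whose core is the E-box CACGTG, and are activated through it by the transcription factor TFEB, which mTORC1 holds in the cytoplasm of fed cells. In liver, both hepatocytes and macrophages are rich in lysosomes.

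The core letters were searched in promoter windows from RefSeq (GRCm38.p6), each 250 bases before to 50 bases after an annotated start. Windows were found for 34 of the 37 members, 39 windows in all, and none for Ctsb, Ctsh or Atp6v1h. CACGTG, which reads the same on both strands, was present in 12 of the 39 windows (30.8%), against 7.15% of all 32851 windows and 10.2% of the windows of genes tested. The extended palindrome TCACGTGA was present in 4 member windows (10.3%), against 0.974% of all windows and 1.92% of the windows of genes tested. It contains CACGTG, so the windows with TCACGTGA are also among those with the core. Of the genes, 12 of 34 members (35.3%) had the core in at least 1 window, against 12.2% of the genes tested that had windows. Lamp1, the most abundant member, held 4 copies within 70 bases before its start on the plus strand (chr8:13159091-13159160), shown here with each core in capitals.
Lamp1: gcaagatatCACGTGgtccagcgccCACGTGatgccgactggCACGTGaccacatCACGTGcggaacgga

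The other members with a core are shown as 26 bases around it, 5′ to 3′ on the strand of the gene, with the core in capitals. The lines run from the cathepsins to the glycosidases, the sulfatases, Lgmn and Mcoln1. Ctsa, Ctsd, Gla and Mcoln1 held 2 copies each, of which 1 is shown. Positions are those of the first base of the core relative to an annotated start. For Ctsa and Ctsl, as for Lgmn, the RefSeq span of the gene begins farther upstream than the start used, and the core lies within that span.
Ctsd (chr7:142387910-142387935, minus strand, position -98): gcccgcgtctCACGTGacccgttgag
Ctsa (chr2:164833751-164833776, plus strand, position -12): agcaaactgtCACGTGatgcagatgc
Ctsl (chr13:64370741-64370766, minus strand, position -236): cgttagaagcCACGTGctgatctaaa
Gla (chrX:134601184-134601209, minus strand, position -194): agatctcggtCACGTGagcaactctc
Glb1 (chr9:114401020-114401045, plus strand, position -48): gcttctgagtCACGTGgcctacagag
Naglu (chr11:101070011-101070036, plus strand, position -73): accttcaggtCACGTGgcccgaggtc
Gaa (chr11:119267813-119267838, plus strand, position -140): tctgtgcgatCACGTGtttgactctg
Sgsh (chr11:119355524-119355549, minus strand, position -29): gcctgccgtgCACGTGaccgtgggga
Arsa (chr15:89477425-89477450, minus strand, position -16): aactcagtgtCACGTGttgtctgctc
Lgmn (chr12:102439126-102439151, minus strand, position -49 from a second start): gaatgtctgtCACGTGgtccatttta
Mcoln1 (chr8:3500464-3500489, plus strand, position -45): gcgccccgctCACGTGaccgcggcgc

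Members at very different levels carried the core, from Lamp1 at 336 FPKM in WT to Gla at 1.87 FPKM. A match is a description of these letters and not a mapped binding site.

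Before the members are described, some facts on the libraries bear on them. Gpr180 checks the labels, and its level ranged from 4.46 to 9.24 FPKM with a median of 7.29 in WT and from 0.876 to 1.99 FPKM with a median of 1.79 in *Gpr180*KO, with no overlap. Its difference, here and below the *Gpr180*KO mean minus the WT mean on the log2(FPKM + 0.1) scale, was -2.0 ± 0.18 (SE; limma adjusted p = 4.74e-06). The sample titles come in 2 styles, here called series 1 (4 mice per genotype) and series 2 (5 per genotype), and whether these are batches is not stated. The depth of each value is unknown, but the repeated steps of low values put relative depth at 60.7% to 100% of that of W317 in WT and at 44.4% to 93.3% in *Gpr180*KO, with KO319 the lowest. These depths are rough. Outside W317, the most common ratio to W317, from which they were read, held only 6.53% (KO54) to 14.1% (W318) of the low genes compared. KO51 stood apart, with a summed FPKM of 718746 where the libraries had a median of 570149. It had the highest value of all 18 livers for 6 members and the lowest for 8.

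The differences of the members stand beside a shift over all genes, whose cause was not tested. In the values as deposited, the median difference over the 10835 genes tested was -0.13, and the *Gpr180*KO mean was the lower for 76.9% of them. With median-of-ratios scaling, which divides each library by its median ratio to a common reference, the median was 0.02. Differences of members are therefore also given relative to -0.13 or on the rescaled values.

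In the values as deposited, 4 of the 37 members were lower in *Gpr180*KO at an adjusted p under 0.05, namely Hexa, Arsb, Ppt1 and Lgmn, and none was higher. Over all genes tested, 4.28% were called lower and 0.452% higher. At an unadjusted p under 0.05, 16 members were lower, where 19.6% of all genes were, and none was higher. The mean was lower in *Gpr180*KO for 35 members, and 23 lay below the median difference of all genes. After median-of-ratios scaling no member was called lower, where 1.36% of all genes were, although 20 members kept a lower mean, where 44.9% of all genes had one. All 4 called members kept a negative difference on those values, between -0.38 for Hexa and -0.21 for Ppt1.

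**Figure D1:**
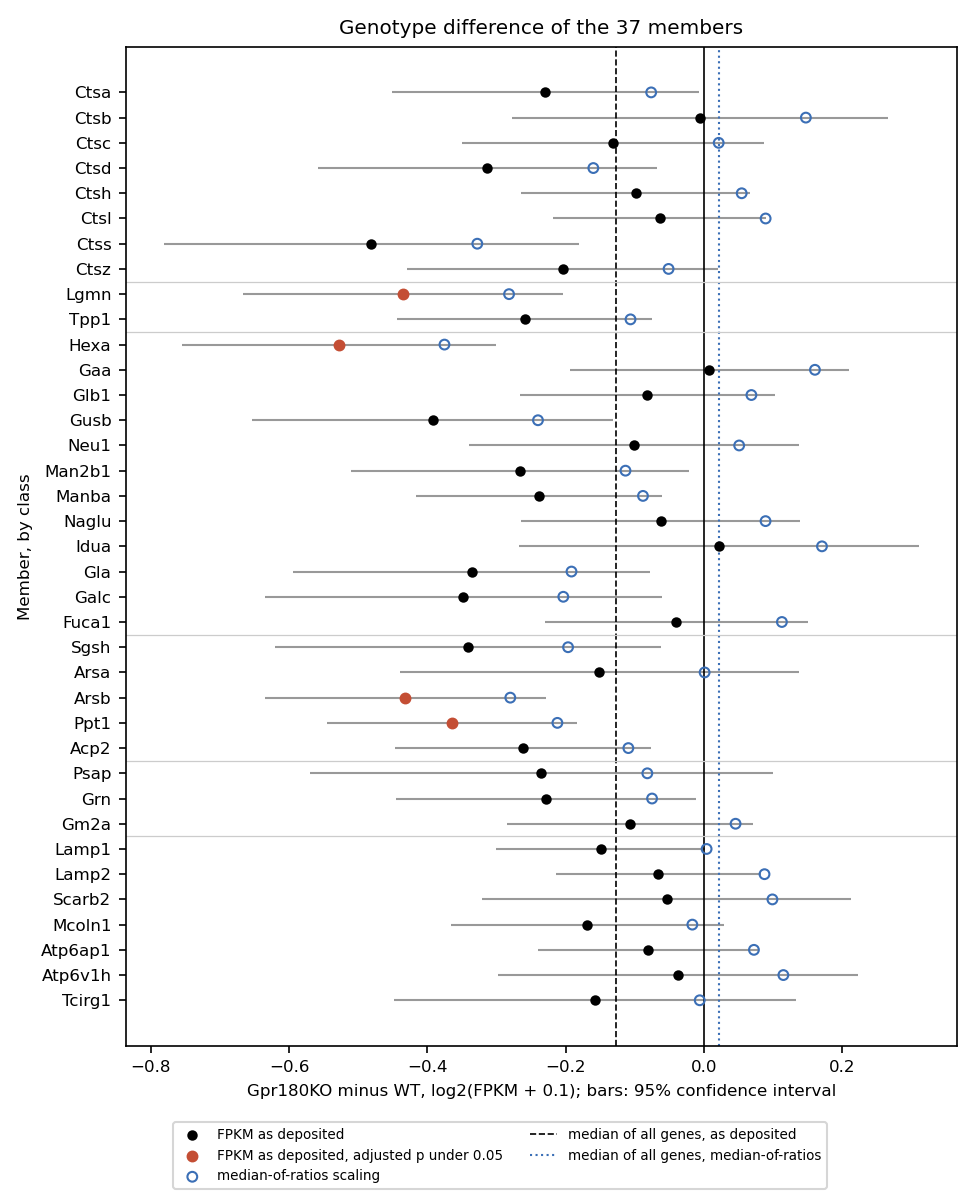
Difference between *Gpr180*KO and WT livers for each member on the log2(FPKM + 0.1) scale (x axis), ordered by class (y axis). Filled points are values as deposited with 95% confidence intervals, red where the adjusted p was under 0.05, open circles are median-of-ratios values, and the vertical lines mark 0 and the medians of all genes. The 4 red points lie between -0.53 and -0.36, and every open circle lies to the right of its filled point.

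Hexa, the alpha subunit of the beta-hexosaminidase that removes terminal hexosamines from GM2 ganglioside, changed most. Its level ranged from 36.3 to 54.3 FPKM with a median of 45.1 in the 9 WT livers, and from 21.4 to 38.5 FPKM with a median of 32.1 in the 9 *Gpr180*KO livers. The 9 *Gpr180*KO values all lay below the WT median, while the highest of them, in KO319 and KO51, exceeded the lowest WT value, in W157. The mean was 45.1 ± 5.59 FPKM (SD, n = 9) in WT and 31.5 ± 5.72 FPKM (SD, n = 9) in *Gpr180*KO, a difference of -0.53 ± 0.11 (SE) or 30.7% (limma adjusted p = 0.0159). The call was kept when any 1 of the 18 livers was left out, with an adjusted p of at most 0.0411. With median-of-ratios scaling the difference was -0.38 with an adjusted p of 0.0512.

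Arsb, arylsulfatase B, which removes sulfate groups from dermatan sulfate, ranged from 10.3 to 14.5 FPKM with a median of 12.4 in WT. In *Gpr180*KO it ranged from 6.60 to 10.6 FPKM with a median of 9.89. The groups overlapped only where W319 lay just below the 2 highest *Gpr180*KO livers, KO319 and KO321. The difference was -0.43 ± 0.10 (SE; limma adjusted p = 0.0212), from 12.4 ± 1.35 FPKM in WT to 9.22 ± 1.41 FPKM in *Gpr180*KO (SD, n = 9 each). Without W133, the highest WT liver, the adjusted p was 0.0532, and with median-of-ratios scaling it was 0.0605. In series 1 alone the difference was -0.14 and in series 2 alone -0.67. The interaction of genotype with series was -0.53 with an unadjusted limma p of 0.0031 and an adjusted p of 0.581.

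Ppt1, the palmitoyl-protein thioesterase that strips fatty acids from cysteines of proteins under degradation, ranged from 13.2 to 19.8 FPKM with a median of 17.0 in WT and from 11.2 to 14.6 FPKM with a median of 12.2 in *Gpr180*KO. All 9 *Gpr180*KO livers lay below the WT median, and W157 and W319 lay within the *Gpr180*KO range. The difference was -0.36 ± 0.09 (SE; limma adjusted p = 0.0262), and it was -0.36 in each series. The call was lost without W317, W318, W320, W133 or KO52, each in turn, with an adjusted p between 0.0505 and 0.0629. The adjusted p was 0.121 with median-of-ratios scaling.

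Lgmn, legumain, which cuts after asparagine and activates several cathepsins, ranged from 33.7 to 64.2 FPKM with a median of 57.2 in WT. The *Gpr180*KO livers ranged from 30.0 to 42.0 FPKM with a median of 40.0. W157, at 33.7 FPKM, was the single WT liver within the *Gpr180*KO range. The difference was -0.43 ± 0.11 (SE; limma adjusted p = 0.0337), from 51.7 ± 9.69 to 37.8 ± 4.25 FPKM (SD, n = 9 each). Leaving out W317, W318, W320, W133, KO52, KO53 or KO54 raised the adjusted p to between 0.0589 and 0.0751, and median-of-ratios scaling raised it to 0.113.

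Hexa, Arsb and Ppt1 had no CACGTG in their promoter windows, and Lgmn had it only before its second start. The 70 bases before an annotated start are shown for Hexa, Arsb and Ppt1, on the plus strand and without capitals since they hold no core. For Ppt1 the RefSeq span of the gene begins upstream of these bases, at chr4:122836077, so they lie within it.
Hexa (chr9:59539470-59539539): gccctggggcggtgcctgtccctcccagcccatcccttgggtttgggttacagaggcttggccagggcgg
Arsb (chr13:93771609-93771678): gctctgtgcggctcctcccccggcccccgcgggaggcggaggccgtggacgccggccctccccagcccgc
Ppt1 (chr4:122836157-122836226): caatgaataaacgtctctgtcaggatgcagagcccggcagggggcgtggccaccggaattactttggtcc

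The median difference was -0.16 over the 12 members with the core and -0.23 over the 22 members that had windows without it. This is a description, and the letters of a window say nothing of whether TFEB was bound in these livers.

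**Figure D2:**
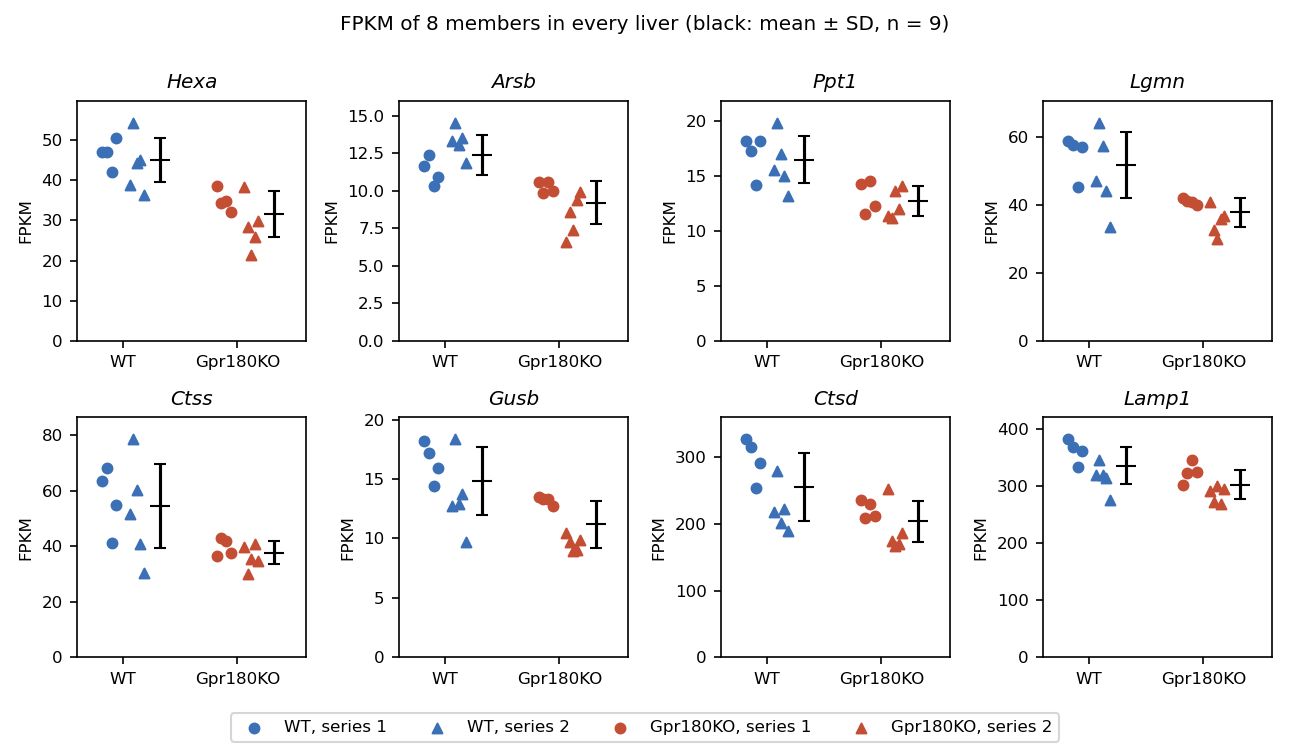
Level in FPKM (y axis, from 0) of 8 members in each liver by genotype (x axis), with circles for series 1 and triangles for series 2 and the mean ± SD (n = 9) in black. Hexa, Arsb, Ppt1 and Lgmn were called lower in *Gpr180*KO, Ctss, Gusb, Ctsd and Lamp1 were not, and the genotypes overlap in every panel.

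No member had WT and *Gpr180*KO livers that did not overlap, which 0.231% of all genes had. For 12 members, Ctsd, Ctss, Lgmn, Tpp1, Hexa, Gusb, Gla, Galc, Arsb, Ppt1, Acp2 and Grn, all 9 *Gpr180*KO livers lay below the WT median, as for 13.2% of all genes.

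Among the 8 cathepsins none passed the test, and all 8 had a lower mean in *Gpr180*KO. Ctss, cathepsin S, the cysteine protease that trims the invariant chain in antigen-presenting cells, came nearest. Its level ranged from 30.4 to 78.6 FPKM with a median of 55.03 in WT and from 30.1 to 43.1 FPKM with a median of 37.8 in *Gpr180*KO, a difference of -0.48 ± 0.14 (SE; limma adjusted p = 0.0573). The WT livers were widely spread, with W133 and W318 the highest and W157 the lowest, and without W157 the difference was -0.58 with an adjusted p of 0.00748. In the other 17 fits that left out 1 liver Ctss was not called, with an adjusted p of up to 0.122. Without W157, 844 of the 10835 genes tested were called lower, against 464 with all livers. Ctsd, the main aspartic protease of the lysosome, ranged from 189 to 326 FPKM with a median of 254 in WT and from 166 to 252 FPKM with a median of 208 in *Gpr180*KO. Its difference was -0.31 ± 0.12 (SE; limma adjusted p = 0.124), and KO51 was the highest *Gpr180*KO liver.

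Ctsa, which has carboxypeptidase activity and protects beta-galactosidase and neuraminidase, had means of 40.4 ± 5.69 FPKM in WT and 34.6 ± 5.93 FPKM in *Gpr180*KO (SD, n = 9 each; difference -0.23, limma adjusted p = 0.211). Ctsz, a carboxypeptidase, had 133.2 ± 17.0 and 117 ± 23.2 FPKM (SD, n = 9 each; difference -0.20, limma adjusted p = 0.275), and KO51 lay above all WT livers. Ctsc, which activates the serine proteases of granulocytes, differed by -0.13 (95% interval -0.35 to 0.09). Ctsh, an aminopeptidase, differed by -0.10 (95% interval -0.26 to 0.07). The cysteine proteases Ctsl and Ctsb were nearest to 0, with differences of -0.06 (95% interval -0.22 to 0.09) and -0.01 (95% interval -0.28 to 0.27). Of these, Ctsc, Ctsh, Ctsl and Ctsb were higher in *Gpr180*KO on the rescaled values.

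Ctsl and Ctsb had opposite signs in the series. In series 1 Ctsl ranged from 279 to 303 FPKM in WT and from 238 to 258 FPKM in *Gpr180*KO, without overlap, and in series 2 from 255 to 285 FPKM and from 240.3 to 319.5 FPKM. The series 1 difference was -0.25 and the series 2 difference 0.09 (limma interaction, unadjusted p = 0.0113, adjusted p = 0.587). For Ctsb the differences were -0.19 and 0.14 (limma interaction, unadjusted p = 0.0269, adjusted p = 0.626). Ctsl was 1 of 13 members with each *Gpr180*KO liver below each WT liver in series 1, where 11.5% of all genes were so. The others were Ctsd, Ctsz, Lgmn, Tpp1, Hexa, Gusb, Man2b1, Idua, Gla, Galc, Psap and Grn.

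Tpp1, the tripeptidyl peptidase that trims proteins from the amino end, stood beside Lgmn among the peptidases. It ranged from 27.1 to 32.8 FPKM with a median of 32.2 in WT and from 17.5 to 30.1 FPKM with a median of 27.0 in *Gpr180*KO, a difference of -0.26 ± 0.09 (SE; limma adjusted p = 0.0916). KO51 had the lowest value, well under the next *Gpr180*KO liver.

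Of the 12 glycosidases, Hexa alone passed the test, and 10 had a lower mean in *Gpr180*KO. Gusb, beta-glucuronidase, ranged from 9.72 to 18.3 FPKM with a median of 14.4 in WT and from 8.90 to 13.5 FPKM with a median of 10.4 in *Gpr180*KO. The difference was -0.39 ± 0.13 (SE; limma adjusted p = 0.0729), and without W157, the lowest WT liver, it was -0.46 with an adjusted p of 0.0172. In the other 17 such fits Gusb was not called, with an adjusted p of up to 0.151. As given for Ctss, calls over all genes rose from 464 to 844 lower without W157. The alpha-mannosidase Man2b1 and the beta-mannosidase Manba, which remove mannose from N-glycans, differed by -0.27 (limma adjusted p = 0.187) and -0.24 (limma adjusted p = 0.106). Gla, the alpha-galactosidase A that clears globotriaosylceramide, differed by -0.34 (limma adjusted p = 0.117). Galc, which splits galactosylceramide, differed by -0.35 (limma adjusted p = 0.144). Both were among the members of lowest level, Gla with means of 1.87 ± 0.37 and 1.44 ± 0.188 FPKM and Galc with 1.91 ± 0.327 and 1.49 ± 0.31 FPKM (SD, n = 9 each).

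The remaining 6 glycosidases had differences between -0.10 and 0.02. The intervals were -0.27 to 0.10 for the beta-galactosidase Glb1, -0.34 to 0.14 for the sialidase Neu1, -0.26 to 0.14 for Naglu, which acts on heparan sulfate, and -0.23 to 0.15 for the fucosidase Fuca1. Gaa, the acid alpha-glucosidase that breaks down glycogen, had a difference of 0.01 (95% interval -0.19 to 0.21). Idua, the iduronidase of heparan and dermatan sulfate, had a difference of 0.02 (95% interval -0.27 to 0.31). Gaa and Idua were the members with a higher mean in *Gpr180*KO as deposited, and on the rescaled values all 6 had a higher mean.

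The group of sulfatases, thioesterase and phosphatase held 2 of the 4 calls, Arsb and Ppt1, and all 5 had a lower mean in *Gpr180*KO. Acp2, the lysosomal acid phosphatase, ranged from 12.8 to 16.03 FPKM with a median of 14.2 in WT and from 8.20 to 14.1 FPKM with a median of 12.6 in *Gpr180*KO (difference -0.26, limma adjusted p = 0.0896), with KO51 the lowest. Sgsh, the heparan N-sulfatase, had means of 2.01 ± 0.247 and 1.59 ± 0.37 FPKM (SD, n = 9 each; difference -0.34, limma adjusted p = 0.14). Arsa, arylsulfatase A, which desulfates sulfatide, had 20.7 ± 3.31 and 18.9 ± 4.15 FPKM (SD, n = 9 each; difference -0.15, limma adjusted p = 0.527).

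Psap, the precursor of the saposins that present sphingolipids to their hydrolases, was the fourth most abundant member and had the largest SD on the log2 scale when both genotypes were pooled. Its level ranged from 177 to 374 FPKM with a median of 241 in WT and from 154 to 289.8 FPKM with a median of 252 in *Gpr180*KO, and the groups overlapped broadly (difference -0.24 ± 0.16 SE, limma adjusted p = 0.39). The series stood apart, with 296 to 374 FPKM in series 1 and 177 to 241 FPKM in series 2 among WT livers. Grn, the precursor of granulins, had means of 73.3 ± 12.003 and 62.4 ± 8.68 FPKM (SD, n = 9 each; difference -0.23, limma adjusted p = 0.202). Gm2a, the GM2 activator that lifts the ganglioside to beta-hexosaminidase, differed by -0.11 (95% interval -0.29 to 0.07), beside the lower level of Hexa.

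None of the 7 membrane proteins passed the test, and as a class they were closest to 0 in the values as deposited, with a mean difference of -0.10. With median-of-ratios scaling their mean difference was 0.05, and that of the activators and of the cathepsins was -0.04. Lamp1 and Lamp2, the heavily glycosylated proteins that line the lysosomal membrane, were the most abundant members. Lamp1 ranged from 277 to 382 FPKM with a median of 333 in WT and from 268 to 346 FPKM with a median of 300.2 in *Gpr180*KO, a difference of -0.15 ± 0.07 (SE; limma adjusted p = 0.232). Lamp2 ranged from 302 to 335 FPKM in WT and from 248 to 352 FPKM in *Gpr180*KO, a difference of -0.07 (95% interval -0.21 to 0.08), with KO319 and KO51 the lowest livers. Scarb2, a membrane receptor that delivers a hydrolase to the lysosome, had means of 52.5 ± 5.74 and 51.6 ± 10.9 FPKM (SD, n = 9 each). KO51, at 27.4 FPKM, was far under the other *Gpr180*KO livers for Scarb2, whose lowest value was 41.99 FPKM.

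The subunits of the proton pump showed small differences. Atp6v1h, of the cytosolic V1 sector, differed by -0.04 (95% interval -0.30 to 0.22), Tcirg1, an a-subunit of the membrane V0 sector, by -0.16 (95% interval -0.45 to 0.13), and the accessory protein Atp6ap1 by -0.08 (95% interval -0.24 to 0.08). Mcoln1, the calcium channel of the lysosomal membrane, differed by -0.17 ± 0.09 (SE; limma adjusted p = 0.302). In series 1 Mcoln1 ranged from 11.2 to 14.3 FPKM in WT and from 12.6 to 14.7 FPKM in *Gpr180*KO, and in series 2 from 13.4 to 17.2 FPKM and from 9.62 to 12.7 FPKM, so the genotypes did not overlap in series 2. Manba, Sgsh and Arsb also had each *Gpr180*KO liver below each WT liver there, as 5.5% of all genes had. The limma interaction was -0.55 with an unadjusted p of 0.00133 and an adjusted p of 0.581. On the rescaled values 5 of the 7 membrane proteins, Lamp1, Lamp2, Scarb2, Atp6ap1 and Atp6v1h, had a higher mean in *Gpr180*KO.

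**Figure D3:**
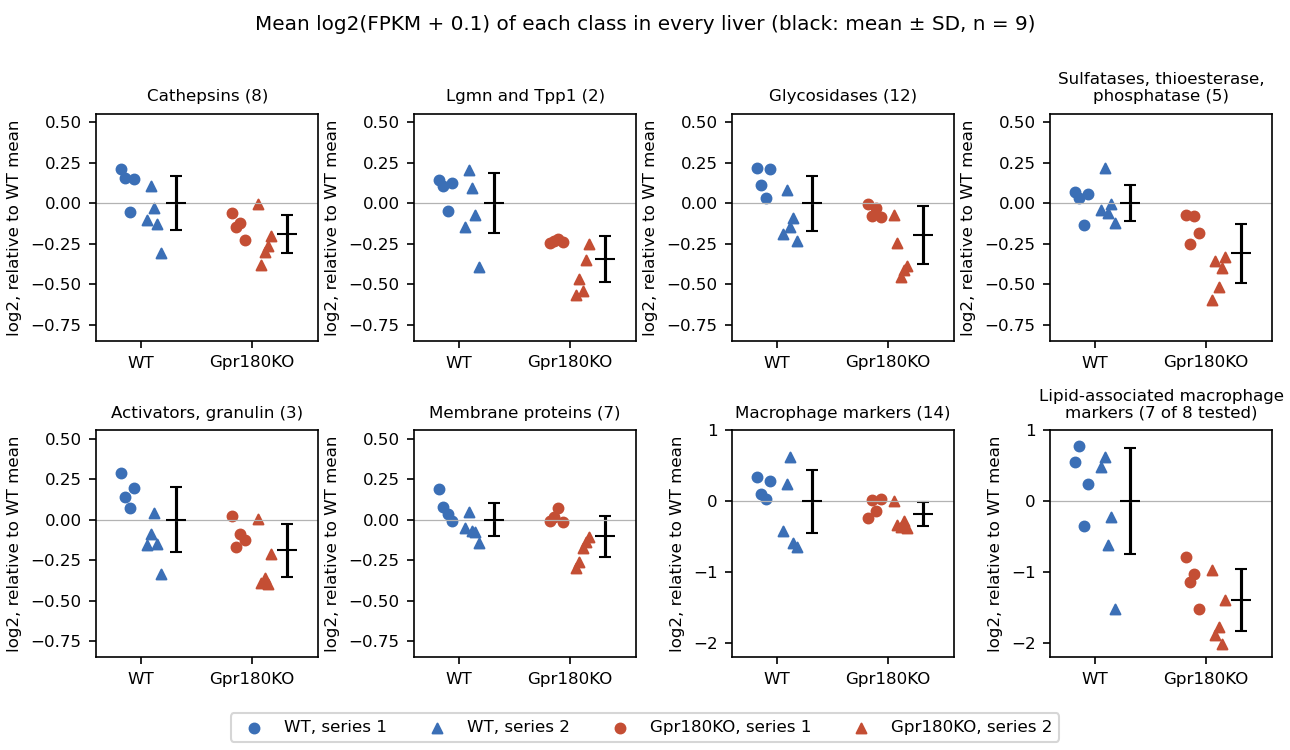
Mean log2(FPKM + 0.1) of each class of members and of macrophage marker lists in each liver, relative to the WT mean of that class (y axis; the last 2 panels have a wider scale), by genotype (x axis). Circles are series 1, triangles series 2, and black bars the mean ± SD (n = 9). The mean difference is -0.35 for Lgmn with Tpp1 and -0.10 for the membrane proteins, and genotypes overlap in every class.

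Over all 37 members the mean of log2(FPKM + 0.1) was 4.83 ± 0.14 in WT and 4.63 ± 0.12 in *Gpr180*KO (SD, n = 9 each), a difference of -0.20, or -0.07 relative to the median of all genes. By class the mean difference was -0.35 for Lgmn with Tpp1, -0.31 for the sulfatases, thioesterase and phosphatase, -0.20 for the glycosidases, -0.19 for the cathepsins and for the activators with granulin, and -0.10 for the membrane proteins. Relative to the median of all genes these were -0.22, -0.18, -0.07, -0.06, -0.06 and 0.03. As a class the membrane proteins did not lie below the general shift. Lamp1, Mcoln1 and Tcirg1 lay slightly below it, by -0.02, -0.04 and -0.03. The order of the classes differed between the series. For the sulfatases, thioesterase and phosphatase the mean difference was -0.15 in series 1 and -0.44 in series 2. For the cathepsins it was -0.26 and -0.14, and for the activators with granulin -0.26 and -0.13. For Lgmn with Tpp1 it was -0.32 and -0.37, and over all members -0.19 and -0.21. Within series 28 members had a lower mean in *Gpr180*KO in both and 9 had opposite signs. The test of the difference between series called no member and no gene, with 4 members (Ctsb, Ctsl, Arsb and Mcoln1) at an unadjusted limma p under 0.05.

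The levels of the members spanned a 193-fold range. On the FPKM scale, which is per length of transcript, 8 members averaged at least 100 FPKM over the 18 livers, in the order Lamp1, Lamp2, Ctsl, Psap, Ctsd, Ctsb, Ctsh and Ctsz, and they held 70.6% to 75.8% of the summed level of the members in each liver. Lamp1 and Lamp2, and likewise Ctsb and Ctsh, differed by less than their spread. At the other end Idua, Sgsh, Galc and Gla averaged under 5 FPKM. The within-genotype SD on the log2 scale, pooled over both genotypes, was lowest for Lamp2 at 0.13 and highest for Psap at 0.36. In WT alone it was highest for Ctss at 0.43 and in *Gpr180*KO alone for Scarb2 at 0.37. The median of the pooled SD over the members was 0.23, against 0.28 over all genes. The deposited bounds of each FPKM had a half-width of 2.5% of their midpoint for Lamp1 and of 22.5% for Gla, as the median over livers, so counting error weighs most on the members of lowest level.

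**Figure D4:**
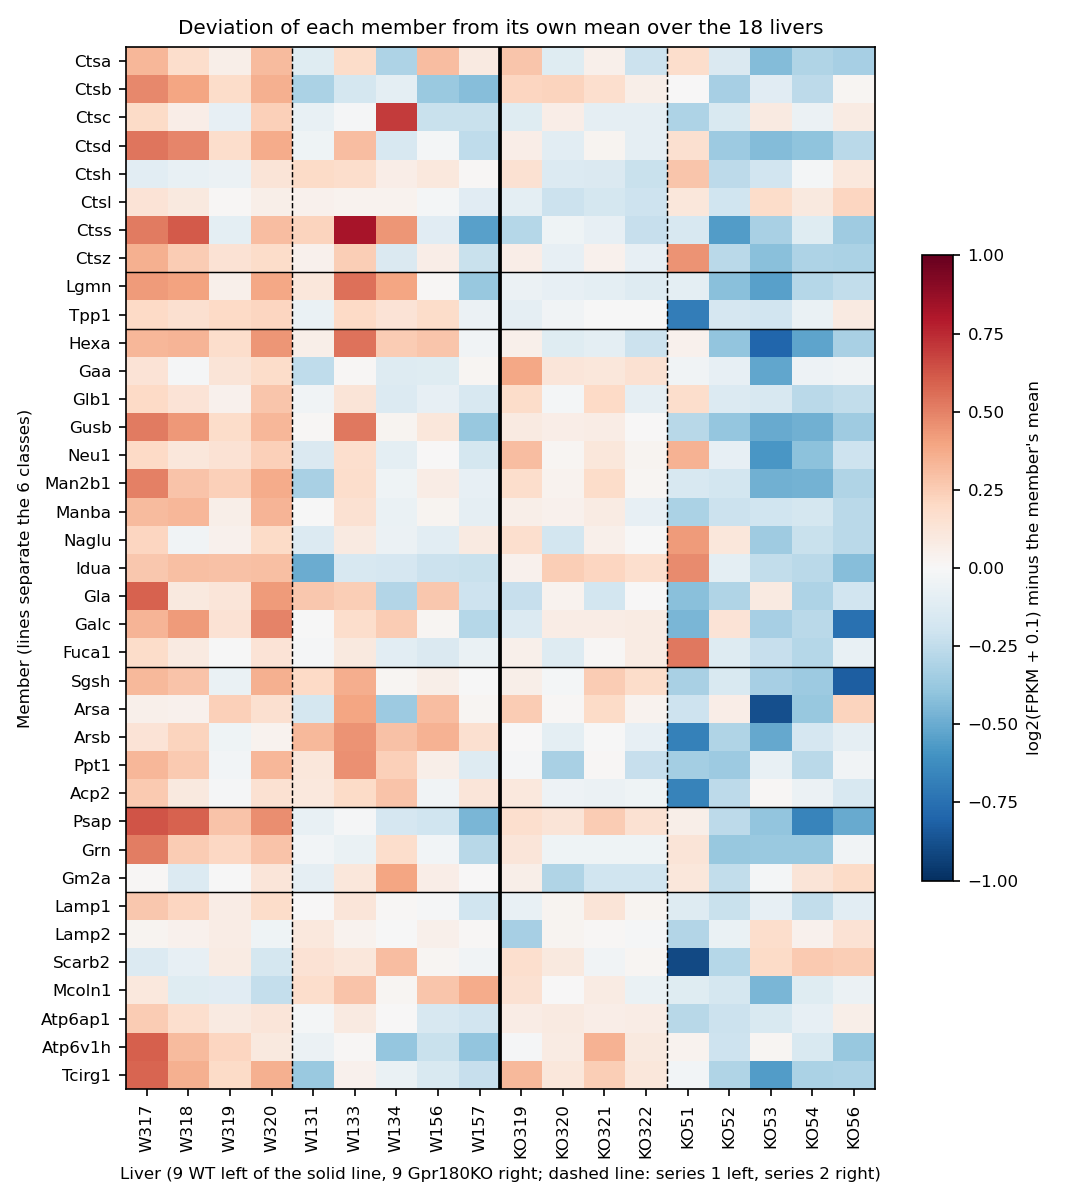
Level of each member (rows, by class) in each liver (columns), as log2(FPKM + 0.1) minus the member's own mean over the 18 livers, red above and blue below. WT livers lie left of the solid line, and dashed lines part series 1 from series 2. W317 is above the own median of 34 members and KO52 of 3, and KO51 mixes high and low members.

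Livers differed in the members as a group. The number of members above their own median over the 18 livers was 34 in W317 and W320, 32 in W133, 30 in W318 and 28 in W319 and KO319. The same count was 3 in KO52, 5 in KO54, 7 in KO53 and W157, and 9 in KO56. Series 1 *Gpr180*KO livers lay between, at 13 to 28. W317 had the highest value of all livers for 11 members and KO53 the lowest for 13. On the rescaled values KO51 had the highest mean deviation of the members from their own means, 0.20, above 0.14 in W320 and W317, where it was -0.09 as deposited.

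The series separated some members more clearly than the genotype did. For Ctsb, Man2b1, Psap, Atp6ap1 and Tcirg1 each series 1 liver lay above each series 2 liver within both genotypes, as for 3.73% of all genes, and no member had the opposite order, which 0.36% of all genes had. With the series as a term in the model, 10 members were called lower, Ctsd, Ctss, Lgmn, Tpp1, Hexa, Gusb, Man2b1, Manba, Arsb and Ppt1, where 9.52% of all genes were. With median-of-ratios scaling and the series term together, Hexa and Arsb were called, where 3.06% of all genes were called lower. With limma weights that count a variable library less, 15 members were called lower, where 10.7% of all genes were. Without KO319 and KO51 the count was 8, the 4 called members with Ctsa, Ctsd, Ctsz and Acp2, where 7.81% of all genes were.

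Other genes of the lysosome were read from 3 further lists, whose counts stand beside the 4.28% of all genes called lower and the 76.9% with a lower mean, or 1.36% and 44.9% on the rescaled values. Of 39 further lysosomal genes, 37 were tested, since Lipa had failed estimates and Ctsk was under 1 FPKM. A total of 7 were called lower and none higher, 36 had a lower mean, and the median difference was -0.18. Among the 7 were Asah1, the acid ceramidase (-0.53, limma adjusted p = 0.0154), the sulfatase Galns (-0.75, limma adjusted p = 0.0373), the mannosidase Man2b2 (-0.50, limma adjusted p = 0.0337), the tetraspanin Cd63 (-1.34, limma adjusted p = 0.0212), Laptm5, a lysosomal membrane protein of blood cells (-0.59, limma adjusted p = 0.0358), and Gnptab, the phosphotransferase that builds the mannose 6-phosphate tag (-0.47, limma adjusted p = 0.0466). Ctsf had the highest difference, 0.09. With median-of-ratios scaling, Asah1 and Cd63 were called and 23 of the 37 had a lower mean.

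Of 19 further V-ATPase subunits, 15 were tested and 2 were called lower, Atp6v0d2, a subunit of the V0 sector known from macrophages and osteoclasts (-1.01, limma adjusted p = 0.0159), and Atp6v0e (-0.32, limma adjusted p = 0.0448). The median difference of that list was -0.14, and Atp6v0c, which W319 lists near 0, had the highest value at 1.18 (limma adjusted p = 0.503). Of 16 genes of the TFEB family and of the scaffold that holds mTORC1 on the lysosome, 13 were tested and Rraga, a Rag GTPase, was called lower (-0.26, limma adjusted p = 0.0392). Fnip2 had the lowest difference of that list, -0.58 (limma adjusted p = 0.107), and Lamtor4 the highest, 0.06. The median difference was -0.07, above that of all genes. Beside the single call, 11 of the 13 had a lower mean as deposited and 4 with median-of-ratios scaling.

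Markers of other liver cells were read as well. Their counts stand beside the 4.28% of all genes called lower as deposited and the 1.36% on the rescaled values. Of 8 markers of lipid-associated macrophages, which take up lipid in steatotic liver, 7 were tested and 4 were called lower, Spp1 (-1.96, limma adjusted p = 0.00701), Trem2 (-1.82, limma adjusted p = 0.0227), Gpnmb (-2.31, limma adjusted p = 0.0373) and Mmp12 (-1.92, limma adjusted p = 0.0404), with a median difference of -1.82 over the list. Their summed level ranged from 101 to 316 FPKM in WT and from 67.5 to 147 FPKM in *Gpr180*KO, and the WT liver with the lowest sum was W134. With median-of-ratios scaling 2 of the 4, Spp1 and Trem2, were still called lower. By the mean of log2(FPKM + 0.1) over the list the lowest WT liver was W157 at 1.81. W157 also had the lowest Ctss, Lgmn and Gusb in WT, but its low values were not limited to these. Ctsb, Ctsd, Hexa, Psap and Lamp1, among others, were lowest there too. Of the WT livers, W157 had the fewest members above their own median, 7, and the lowest median deviation over all genes, -0.05. The next WT liver by the list mean was W134 at 2.72. W134 had 60.2 FPKM of Ctss and 57.5 FPKM of Lgmn, both above the WT median. Of 14 general macrophage markers, 1, Cd68, was called lower and 3 had a higher mean, with a median difference of -0.20. Their summed levels were 328 to 769 FPKM in WT and 357 to 574 FPKM in *Gpr180*KO. Of all livers, W134 had the highest sum and list mean (5.09) of these markers, and W157 the lowest sum and list mean (3.83). Whether Ctss or Lgmn follows either macrophage list was not tested. Of 9 markers of stellate cells and fibroblasts, 6 were called lower, Col1a1, Col1a2, Col3a1, Dcn, Lum and Pdgfrb (median -0.82, summed 146 to 298 FPKM in WT and 81.8 to 148 FPKM in *Gpr180*KO). These 6, and Cd68, were also called lower with median-of-ratios scaling.

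No endothelial marker of 8 was called (median -0.20, summed 103 to 163 FPKM in WT and 89.5 to 147 FPKM in *Gpr180*KO). The 3 neutrophil markers tested were not called (median -1.07, summed 2.68 to 38.6 FPKM in WT and 3.68 to 10.2 FPKM in *Gpr180*KO). All 7 lymphocyte markers averaged under 1 FPKM, with summed levels of 1.75 to 6.43 FPKM in WT and 1.74 to 4.26 FPKM in *Gpr180*KO. Of 4 biliary markers 3 averaged under 1 FPKM, and Sox9 was called lower (-0.70, limma adjusted p = 0.0454). Sox9 was not called with median-of-ratios scaling (limma adjusted p = 0.137). Hepatocyte markers were abundant in each liver (summed 21533 to 27881 FPKM in WT and 23979 to 38531 FPKM in *Gpr180*KO). The upper end in *Gpr180*KO was KO51 alone, and the next liver, KO319, had 27787 FPKM. Of the 9 hepatocyte markers tested none was called and 6 had a higher mean in *Gpr180*KO (median 0.08). Ly6g, on the neutrophil list, had no entry in the deposited values. Alb, on the hepatocyte list, had a value of 0 in every WT liver and carried estimates marked as failed or as having too much data. Neither was tested or entered the sums. No marker with an entry was at 0 in all livers, and the part of other cell types in the members' differences was not tested.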

How the data were processed

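Liver poly(A) RNA of 18 male mice on HFD was sequenced by the authors as single reads, aligned to mm10 (GRCm38), and deposited as a table of FPKM values per mouse with lower and upper FPKM bounds, per the file headers. Per the methods the FPKM were output of Illumina's TopHat application. The program within it that computed them, its version and the annotation are not given in the sources used here. The values are not counts, so count tests were not used. Each table held 23847 entries. Entries sharing a symbol (252 symbols) were summed, and 24 symbols with any of the 190 estimates marked as failed or as having too much data were left out. The 153 pairs of libraries correlated between 0.906 and 0.979 on log2(FPKM + 0.1), and none shared more than 0.628% of values, so each mouse was counted as 1 replicate.

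Groups came from the genotype labels. Genes with a mean of at least 1 FPKM (10835) entered a linear model of genotype on log2(FPKM + 0.1) in limma 3.58.1 (R 4.3.3), with moderated errors that followed a trend with the mean. The p-values were adjusted by the method of Benjamini and Hochberg across these genes, and 0.05 was the threshold. A difference between series was tested with an interaction term. In data simulated with 9 against 9 libraries and 10835 genes, 90% of changes of 1 and 99% of changes of 2 on the log2 scale were recovered. Of the genes called there, 6.9% were false. The simulation held no smaller changes, no series and no shift over all genes. It therefore does not show how often differences as small as those of the members would be called. The genes named were all 37 members, other list genes that were called or had the highest or lowest difference, and Gpr180. Lipa and Ctsk were named because they could not be tested. The marker genes named were those called, and Alb and Ly6g, which could not be tested. A called gene of the further lysosomal list is not reported here by name. The members and lists were chosen with earlier results of these data known, and no p is given for a list. The alternatives were pseudocounts of 1 and 0.01, no FPKM minimum or 5, scaling to TPM, by median-of-ratios or to the 75th percentile, a term for the series (also with median-of-ratios), each series alone, weights per library, and leaving out each mouse. The midpoint of the FPKM bounds and the fit without KO319 and KO51 were added after seeing the data. Sequences and starts are from RefSeq (GRCm38.p6). Python 3.11.15, pandas 2.3.3 and matplotlib 3.10.9 were used.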

Additional observations from a re-analysis of the deposited data

Results flagged for a closer look

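Within each genotype, the highest or lowest of the 9 livers was compared with its nearest neighbour for 37 members, Gpr180 and the class means, 90 groups in all, and 5 stood apart by Dixon's criterion, where chance gives about 1 in 20. In WT, W134 was highest for Ctsc at 64.8 FPKM (next 47.0) and for Gm2a at 27.0 FPKM (next 22.3). In *Gpr180*KO, KO51 was highest for Ctsz at 168 FPKM (next 129) and for Fuca1 at 41.4 FPKM (next 30.4), and lowest for Tpp1 at 17.5 FPKM (next 24.8). None of these 5 members was called.

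Mcoln1 was singled out because the 4 *Gpr180*KO livers of series 1 lay above the WT mean of their series and the 5 of series 2 below theirs, with differences of 0.14 and -0.41. The limma interaction was -0.55, with an adjusted p of 0.581.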

How the results depend on the processing

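The mean difference over the members was negative in every alternative run, but the calls were not stable. The 4 members called lower became 0 with median-of-ratios scaling, 2 with 75th percentile scaling, 10 with the series term, 2 with median-of-ratios scaling and the series term, 0 in series 2 alone, 15 with library weights and 8 without KO319 and KO51. Other pseudocounts, minimums and the midpoint of the bounds kept 4, TPM scaling and series 1 alone gave 6, and leaving out 1 mouse gave 1 (without W133) to 6 (without W157), with 2 without W317, W318, W320 or KO52. The number called lower over all genes, 464 in the main fit, moved as well. It was 116 without W133, 146 without W317 or without W318, 216 without W320 and 192 without KO52. It was 844 without W157, 536 with TPM scaling and 488 in series 1 alone. No alternative called a member higher. The mean log2 difference over the members of -0.20 was -0.048 with median-of-ratios scaling, with or without the series term, and -0.23 to -0.18 when 1 mouse was left out. Signs of 15 members, none of them called, turned with median-of-ratios scaling.

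Of the further lysosomal genes, 7 as reported, 2 were called with median-of-ratios or 75th percentile scaling, 12 with the series term or without KO319 and KO51, 0 in series 2 alone, 13 with weights, and 1 (without W317 or W133) to 10 (without KO51) when 1 mouse was left out. Of the V-ATPase subunits, 2 as reported, 0 were called at a minimum of 5 FPKM or in series 2 alone, 1 with either rescaling or median-of-ratios with the series term, 4 with the series term, in series 1 alone or without KO319 and KO51, 6 with weights, and 1 to 3 when 1 mouse was left out. Of the TFEB and scaffold list, 1 as reported, 2 were called with no minimum or with weights, 0 with either rescaling, median-of-ratios with the series term or either series alone, and 0 to 1 when 1 mouse was left out. Gpr180 was -1.94 in series 2 alone (adjusted p = 0.0654) and -2.07 to -1.90 when 1 mouse was left out. At a minimum of 5 FPKM it was not tested, and 33 members were.

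The interaction called 0 members in all alternatives run. Over all genes, 464 called lower and 49 higher became 147 and 146 with median-of-ratios scaling, 172 and 110 with 75th percentile scaling, 0 and 0 in series 2 alone, and 1161 and 170 with weights. The causes were not tested. FPKM values without counts limit what can be said of depth: 22.4% of the 666 member values lay outside their own deposited bounds. No paired analysis was possible because the mouse numbers do not pair animals across genotypes.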
